A study of Mus musculus with 6 samples.

Results

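The Myc, Max and Mxd network was followed through myoblast differentiation by the genes Myc, Mycn, Mycl, Max, Mxd1, Mxd3, Mxd4, Mxi1, Mnt and Mlx. The rows were taken by symbol, all 10 symbols were found among the 43074 in the table of raw counts, and all 10 passed the filter on low counts that left 17433 genes for testing. RNA sequencing libraries came from C2C12, an established, subcloned wild-type mouse myoblast line that withdraws from the cell cycle and fuses into myotubes when serum is changed. The 3 groups were non-treated cells at day 0, cells kept to day 4 in differentiation medium with horse serum and DMSO, and cells kept to day 4 in the same medium with 1 mM 4-phenylbutyric acid (4-PBA), known as a chemical chaperone and histone deacetylase inhibitor, with 2 libraries in each group. Day 0 and day 4 therefore differ in medium, time and vehicle together, which cannot be told apart. The labels do not say whether the 2 libraries of a group came from separate cultures, so the p-values measure the spread between these libraries, which may be technical.

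Myc, N-Myc (Mycn) and L-Myc (Mycl) are basic helix-loop-helix leucine zipper factors that bind DNA as dimers with Max and activate genes of growth, ribosome production and proliferation. The Mxd proteins, Mxi1 and Mnt also dimerise with Max, bind the same E-box sequence and recruit Sin3 corepressor complexes, so they act as antagonists of Myc. Mlx is a Max-like protein that dimerises with the glucose-sensing Mondo factors, and with Mnt and some of the Mxd proteins.

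The E-box CACGTG, the site that Myc-Max and Mxd-Max dimers favour, was searched for in the RefSeq promoter windows (GRCm38.p6) of the network, each spanning 250 bases before and 50 after an annotated start. Windows were matched for 9 of the 10 genes (11 windows, 3 of them of Mxi1); Myc was not matched. CACGTG reads the same on both strands. It stood in the windows of 4 genes, Max, Mxd4, Mnt and Mlx, and in 7.15% of all 32851 promoter windows of the same length. The following stretches show that E-box in capitals with 25 bases on each side, 5′ to 3′ along the gene's strand. They include the E-box of Mxd4, which rose most among the antagonists, those of Max and Mlx, which fell, and that of Mnt, the antagonist that was higher with 4-PBA.
Mxd4: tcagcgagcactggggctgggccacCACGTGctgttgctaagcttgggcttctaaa
Mnt: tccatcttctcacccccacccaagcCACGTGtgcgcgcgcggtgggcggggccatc
Max: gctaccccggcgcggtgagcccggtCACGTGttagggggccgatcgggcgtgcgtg
Mlx: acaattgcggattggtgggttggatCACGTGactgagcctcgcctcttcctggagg
They lie at chr5:34187899-34187954 (minus strand), chr11:74830776-74830831 (plus), chr12:76962221-76962276 (minus) and chr11:101087225-101087280 (plus). The E-box began 219 bases before the RefSeq start of Mxd4, 123 before that of Mnt, 40 before that of Mlx and 3 before that of Max. Of these 4 genes, Mxd4 and Mnt were higher and Max and Mlx lower at day 4 with DMSO than at day 0. Binding at these E-boxes was not tested, nor was their part in the changes.

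The motif GGCGGGAA, a form of the site bound by the cell-cycle factors of the E2F family, was searched for on both strands and stood in 1 window of the network, that of Mxd3, and in 2.19% of all windows. CAGCTG, an E-box favoured by myogenic factors such as MyoD and myogenin, was in none of the 11 windows and in 16.3% of all windows. The stretch of Mxd3 with the motif in capitals is shown because Mxd3 fell along with the proliferation markers, and the 100 bases before the start of Mycl are shown because Mycl had the largest change of the network.
Mxd3: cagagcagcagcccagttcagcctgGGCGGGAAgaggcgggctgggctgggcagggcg
Mycl: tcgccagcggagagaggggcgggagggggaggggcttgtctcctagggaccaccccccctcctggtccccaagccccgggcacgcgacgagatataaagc
They lie at chr13:55329836-55329893 (minus strand) and chr4:122995831-122995930 (plus). The Mxd3 motif began 137 bases before the start, and the window of Mycl held none of the 3 motifs. Binding at the Mxd3 motif was not tested, nor was its part in the fall of Mxd3.

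Total counts were 47908926 to 74697397 per library, of which the 10 genes took 0.0312% to 0.0385%. Among the 4 myoblast markers, Myod1, the factor that commits cells to muscle, stood at 95.8 to 116 CPM in all libraries. CPM is the count scaled to a common library size with TMM factors. Myf5 fell from 50.41 and 49.98 CPM at day 0 to between 22.65 and 24.53 CPM at day 4. Pax7 was low in all libraries, at 0.299 to 1.40 CPM, and like Des and Myod1 was higher at day 4 than at day 0. Myog, the factor of terminal muscle differentiation, rose from 7.94 and 7.85 CPM at day 0 to between 277 and 297 CPM in the 4 libraries of day 4. The 6 myotube markers, all higher at day 4 than at day 0, summed to 7001 and 7339 CPM in the DMSO libraries and to 6512 and 6635 CPM in the 4-PBA libraries. Against day 0, 33.8% of all tested genes were called higher with DMSO and 33.2% with 4-PBA. The myotube markers other than Myog and Myh3 were added after seeing the data. Adipocyte markers summed to 7.48 to 12.2 CPM, nearly all of it Cebpa, with Adipoq at no more than 7 counts in any library. Osteoblast markers summed to 1.19 to 3.41 CPM, most of it Dmp1. With DMSO against day 0, Cebpa was lower (log2 fold change -0.61, adjusted p 1.57e-06, edgeR) and Dmp1 higher (1.28, adjusted p 3.02e-06). In that comparison 66.3% of all tested genes were called. In bulk RNA, fewer cells expressing a gene and less of its RNA per cell cannot be told apart.

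**Figure D1:**
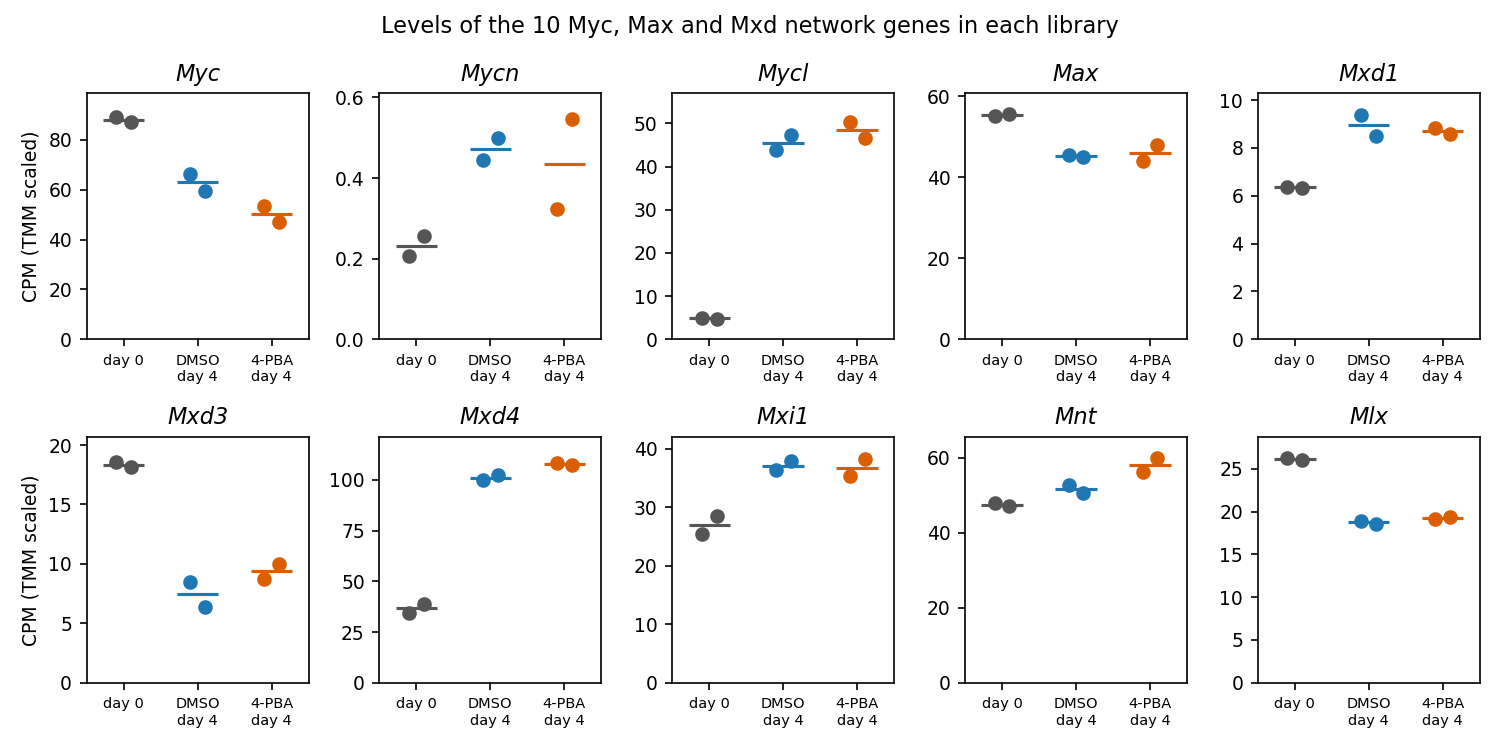
CPM after TMM scaling (y axis, starting at 0 and scaled per gene) of each of the 10 network genes in the libraries of day 0, DMSO at day 4 and 4-PBA at day 4. Points are single libraries and lines are group means (n = 2); Mycl climbed from 4.86 to 45.5 CPM, Mxd4 from 36.6 to 101 CPM, and Myc stepped down from 88.1 to 63.0 and then to 50.2 CPM across the groups.

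Between day 0 and day 4 with DMSO the Myc family changed its make-up: Myc fell by 28.5%, while Mycl rose 9.39-fold. The antagonists Mxd4, Mxd1, Mxi1 and Mnt rose, Mxd3 fell to 0.404 of its day 0 level, and the shared partner Max and its relative Mlx fell. In all, 9 of the 10 genes were called (5 higher, 4 lower) by edgeR's quasi-likelihood test at an adjusted p-value under 0.05, where 66.3% of all tested genes were called in this comparison, 33.8% higher and 32.6% lower. The median log2 fold change of the 10 genes was 0.29, and that of all tested genes 0.023. The libraries of the groups did not overlap for any of the 10, against 81.9% of all tested genes, so separation of the libraries was common across the transcriptome. When each alternative setting and each left-out library was tried, 8 or 9 of the 10 remained above the call threshold, and the gene concerned was Mnt.

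Myc, the family member known for driving proliferation and for opposing terminal muscle differentiation, had levels of 89.2 and 87.1 CPM at day 0 and of 66.4 and 59.6 CPM after 4 days in DMSO. Both DMSO libraries lay below both day 0 libraries, and the log2 fold change was -0.48 (SE 0.0581, adjusted p 7.02e-07, edgeR). On the log2 scale this fall was smaller than that of the proliferation markers, whose 10 genes all fell, by 1.56 to 2.24. Among them Mki67, which marks cycling cells, went from 411 and 412 to 150 and 129 CPM.

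Mycl, which is known mainly from lung and neural tissue and tumours, stood at 4.94 and 4.79 CPM at day 0 and at 43.8 and 47.3 CPM with DMSO. All day 4 libraries were far above both day 0 libraries. Its log2 fold change of 3.23 (SE 0.0736, adjusted p 4.38e-29, edgeR) was the largest of the network and had the 161st smallest p-value among all tested genes. Mycn, the family member of embryonic and neural tissue, was near the floor of detection, with 10 and 18 counts in the libraries of day 0, 28 and 37 counts in those of DMSO, and 20 and 34 counts in those of 4-PBA. With DMSO against day 0 it was not called (log2 fold change 1.01, 95% interval 0.0048 to 2.01 before adjustment, adjusted p 0.0718).

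Mxd4 (Mad4), an antagonist linked to differentiating and resting cells, stood at 34.4 and 38.9 CPM at day 0 and at 99.7 and 102 CPM with DMSO. It was 2.75-fold higher, a log2 fold change of 1.46 (SE 0.0465, adjusted p 8.83e-24, edgeR). Mxd1 (Mad1), which is induced when many cell types differentiate, rose from 6.38 and 6.34 to 9.37 and 8.52 CPM (log2 fold change 0.49, SE 0.107, adjusted p 1.29e-04). Mxi1, a Mad family gene also known as Mxd2, rose from 25.3 and 28.4 to 36.3 and 37.9 CPM (log2 fold change 0.46, SE 0.0612, adjusted p 4.05e-08). For these 3 genes no day 4 library fell within the range of day 0.

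Mnt, the broadly expressed antagonist, changed least, from 47.9 and 47.2 to 52.9 and 50.5 CPM (log2 fold change 0.12, SE 0.0485, adjusted p 0.0276, edgeR). This call was lost with scaling by library size only (adjusted p 0.0875), with the DESeq2 Wald test (0.0879), and without day 0 replicate 1 (0.0774), day 0 replicate 2 (0.130) or DMSO replicate 1 (0.144), and was kept in the other 9 alternatives. Mxd3 (Mad3), the antagonist known to be expressed in S phase, was the exception among the Mxd genes. It stood at 18.5 and 18.1 CPM at day 0 and at 8.49 and 6.39 CPM with DMSO, a log2 fold change of -1.31 (SE 0.105, adjusted p 9.22e-12). The summed level of the proliferation markers went the same way, from 2759 and 2804 CPM to 838 and 742 CPM, and its part in the fall of Mxd3 was not tested.

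Max, the obligate partner of both arms, stood at 55.0 and 55.6 CPM at day 0 and at 45.5 and 45.0 CPM with DMSO, a log2 fold change of -0.29 (SE 0.0493, adjusted p 3.80e-06, edgeR). Mlx fell from 26.2 and 26.1 to 18.9 and 18.5 CPM (log2 fold change -0.48, SE 0.0669, adjusted p 8.92e-08). Replicates of both genes lay close together, and both day 4 libraries were below both day 0 libraries. In GENCODE M21, transcribed bases of Mlx, Mxd3, Mxi1 and Mxd4 are shared with an antisense neighbour (Psmc3ip, Prelid1, Gm10197 and Gm42846, over 385, 105, 194 and 514 bases). Whether counting used strand is not given in the sources used here, so the values of these 4 genes are uncertain to that extent.

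**Figure D2:**
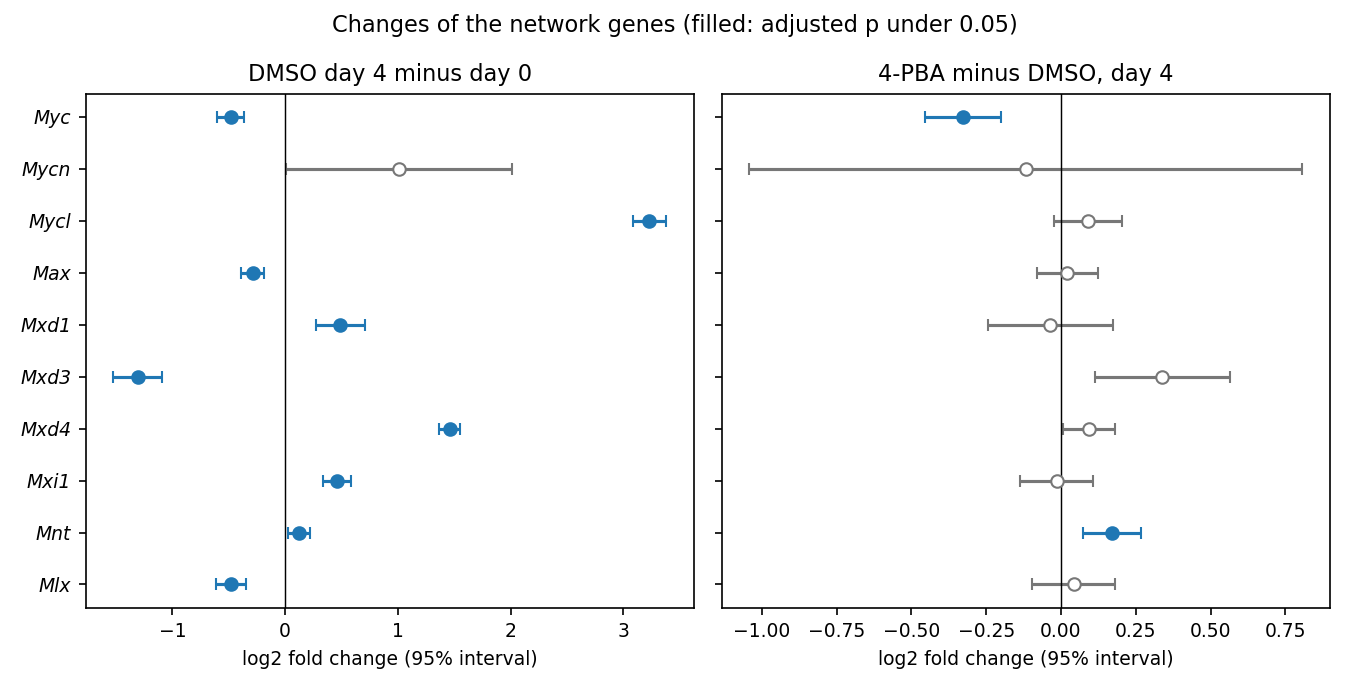
Log2 fold change (x axis, a different scale in each panel) of each network gene between DMSO at day 4 and day 0 (left) and between 4-PBA and DMSO at day 4 (right), with 95% intervals before adjustment for multiple tests. Filled points had an adjusted p-value under 0.05: 9 of the 10 genes on the left, where Mycl stood at 3.23, and on the right Myc at -0.33 and Mnt at 0.17.

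To compare genes with each other, CPM was divided by the length of the gene's longest GENCODE M21 transcript. On this per-length scale the order of mean levels at day 0 was Myc (37.7 CPM per kb), Max (28.5), Mlx (13.3), Mxd3 (10.5), Mnt (10.4), Mxd4 (7.91), Mxi1 (5.34), Mycl (1.39), Mxd1 (1.36) and Mycn (0.0864). The libraries of the neighbours Mxd3 and Mnt overlapped, so these could not be ordered. Those of Mycl (1.41 and 1.37) lay above those of Mxd1 (1.37 and 1.36) by less than this rounding, and the means differed by less than the SD of Mycl (0.0307). With DMSO the order was Myc (27.0), Max (23.3), Mxd4 (21.8), Mycl (13.0), Mnt (11.3), Mlx (9.53), Mxi1 (7.37), Mxd3 (4.27), Mxd1 (1.92) and Mycn (0.176), and no neighbours overlapped. Mxd4 had moved from rank 6 to rank 3, Mycl from rank 8 to rank 4 and Mxd3 from rank 4 to rank 8. With 4-PBA, Max (23.7), Mxd4 (23.3) and Myc (21.5) led, and the libraries of Max overlapped those of Mxd4 and Myc. Then came Mycl (13.9), Mnt (12.7), Mlx (9.81), Mxi1 (7.29), Mxd3 (5.38), Mxd1 (1.87) and Mycn (0.163), without overlap between neighbours. These ranks depended on the length used. With the mean transcript length, Max led Myc at day 0 (57.9 against 52.0) and with DMSO (47.4 against 37.2), Mnt took rank 3 at day 0 (23.8), and with DMSO the libraries of Mxd4 (38.2 and 39.1) and Myc (39.2 and 35.2) overlapped. By group means, Mxd4 then moved from rank 7 to rank 2, Mycl from rank 9 to rank 4 and Mxd3 from rank 5 to rank 8 between day 0 and DMSO. With this length the day 0 libraries of Mxd3, Mxi1 and Mxd4 overlapped, so these genes could not be ordered at day 0. With DMSO the libraries of Mycl overlapped those of Mnt, so these could not be ordered either.

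Summed per length, Myc, Mycn and Mycl together reached 39.6 and 38.7 CPM per kb in the day 0 libraries, 41.1 and 39.2 in the DMSO libraries, and 37.4 and 33.6 in the 4-PBA libraries. Day 0 and DMSO overlapped, so the rise of Mycl was about as large on this scale as the fall of Myc. This balance depended on the length used: with the mean transcript length of each gene the sum was 55.6 and 54.3 at day 0 and 65.0 and 63.0 with DMSO, which did not overlap. The share of Mycl in the family sum was 3.56% and 3.53% at day 0, then 30.5% and 34.4% in the DMSO libraries and 38.5% and 39.7% in the 4-PBA libraries. With the mean transcript length this share was 5.18% and 5.13%, then 39.3% and 43.7%, then 48.1% and 49.3% in the same order of groups.

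The antagonists Mxd1, Mxd3, Mxd4, Mxi1 and Mnt summed to 34.9 and 36.1 CPM per kb at day 0, to 47.2 and 46.1 in the DMSO libraries and to 49.6 and 51.4 in the 4-PBA libraries, and these ranges did not overlap. Mxd4 alone accounted for 21.3% and 23.3% of that sum at day 0 and for 45.0% to 47.9% in the day 4 libraries. With the mean transcript length it accounted for 19.3% and 21.0% at day 0 and for 39.7% to 41.8% at day 4. With the longest transcript, the ratio of the Myc family sum to the antagonist sum was 1.10 ± 0.0436 (SD, n = 2) at day 0, 0.861 ± 0.0152 with DMSO and 0.704 ± 0.0717 with 4-PBA. Its libraries kept this order without overlap with either transcript length and when Mnt was left out. With 2 libraries against 2 an exact permutation test cannot reach 0.05, and none was run.

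**Figure D3:**
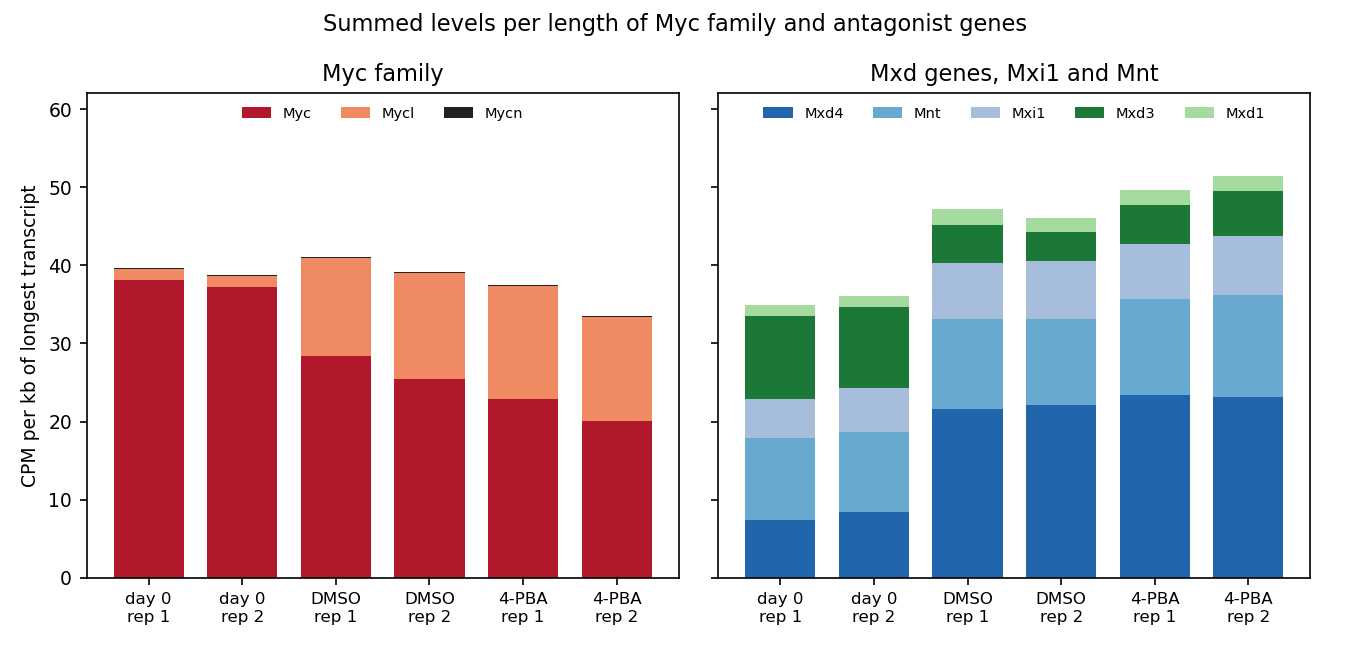
Levels per length (y axis, CPM per kb of the longest transcript) stacked by gene in each of the 6 libraries, for the Myc family (left) and for Mxd4, Mnt, Mxi1, Mxd3 and Mxd1 (right). The left bars stay between 33.6 and 41.1 while the Mycl part grows, and the right bars grow from 34.9 and 36.1 at day 0 to 51.4 in the tallest 4-PBA library as the Mxd4 part grows.

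At day 4, libraries with 4-PBA were set against those with the DMSO vehicle. Myc was lower and Mnt higher with 4-PBA, and the other 8 genes were not called. Thus 2 of the 10 genes were called (1 higher, 1 lower), where 4.9% of all tested genes were called, 2.13% higher and 2.78% lower, and the median log2 fold change was 0.032 over the 10 genes and 0.0021 over all tested genes. The libraries of the groups did not overlap for Myc, Mxd3, Mxd4, Mnt and Mlx, against 45.5% of all tested genes. Leaving out DMSO replicate 2 or 4-PBA replicate 2 left 1 call, and leaving out DMSO replicate 1 gave 3.

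Myc stood at 53.6 and 46.9 CPM with 4-PBA against 66.4 and 59.6 CPM with DMSO, so that both 4-PBA libraries lay below both DMSO libraries. It was lower by 20.3% relative to DMSO in the fitted means, which is to say it fell by 0.33 on the log2 scale (SE 0.0595, adjusted p 0.00295, edgeR). It was called in all 14 alternatives, with log2 fold changes of -0.43 to -0.23 and adjusted p-values of at most 0.0348. Mnt stood at 56.3 and 60.1 CPM with 4-PBA against 52.9 and 50.5 CPM with DMSO, a log2 fold change of 0.17 (SE 0.0477, adjusted p 0.0280). The groups did not overlap, but the call was lost without DMSO replicate 2 (adjusted p 0.125) or without 4-PBA replicate 2 (0.410).

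Mxd3 stood at 8.76 and 9.97 CPM with 4-PBA against 8.49 and 6.39 CPM with DMSO. Its log2 fold change of 0.34 (SE 0.110) did not pass the threshold (adjusted p 0.0757, edgeR). The value rested on DMSO replicate 2, the lowest library: with DMSO replicate 1 left out it was 0.55 (adjusted p 2.91e-04), with DMSO replicate 2 left out 0.14 (0.610), and with the filter relaxed to 1 count the adjusted p was 0.0167. The proliferation markers had the same order of libraries at day 4, summing to 899 and 912 CPM with 4-PBA against 838 and 742 CPM with DMSO. Between these groups 4.9% of all tested genes were called, 2.13% higher. Of the 10 markers 4 were called, all higher (Pcna, Mcm2, Mcm7 and Rrm2); the count was 10 without DMSO replicate 1 and 2 without 4-PBA replicate 2. The part of cycling cells in the Mxd3 value was not tested.

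Some markers of differentiated muscle were also lower with 4-PBA, in the comparison where 4.9% of all tested genes were called, 2.78% lower. The myotube and myoblast markers other than Myog, Myh3 and Myod1 were added after seeing the data. Their counts are therefore a description and no test. Myog, Myh3 and Myod1 were not called (Myod1 log2 fold change -0.045, adjusted p 0.618, edgeR). Of the 6 myotube markers 3 were called, all lower: Ttn, the giant sarcomere protein titin, at 2176 and 2207 against 2614 and 2691 CPM (log2 fold change -0.28, SE 0.0263, adjusted p 1.28e-08, edgeR), the fusion gene Mymk (-0.17, adjusted p 0.0134) and the skeletal actin Acta1 (-0.094, adjusted p 0.0450). Ckm, the muscle creatine kinase, had a log2 fold change of -0.17 (adjusted p 0.719), Myog of 0.0052 (0.972) and Myh3 of 0.018 (0.838). Des, the muscle intermediate filament desmin, was the 1 gene called of 4 myoblast markers and was lower (-0.11, adjusted p 0.00881). Ttn was called in all 14 alternatives; the myotube count was 1 without DMSO replicate 2, without 4-PBA replicate 1 or without 4-PBA replicate 2, and the call of Des was lost without either 4-PBA library (0.242 and 0.172). The call of Acta1 was lost in 9 of 14 alternatives. Ckm was called with limma-voom (0.0454), with only the 4 libraries compared (0.0140) and without day 0 replicate 1 (0.0233) or day 0 replicate 2 (0.0205). The part of these marker values in those of Myc and Mnt was not tested.

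Mxd4 stood at 108 and 107 CPM against 99.7 and 102 CPM (log2 fold change 0.094, 95% interval 0.0057 to 0.18 before adjustment, adjusted p 0.258, edgeR). Mycl stood at 50.4 and 46.6 against 43.8 and 47.3 CPM, with overlapping libraries (0.091, interval -0.024 to 0.21, adjusted p 0.451). The intervals of Max (-0.080 to 0.12), Mlx (-0.096 to 0.18), Mxi1 (-0.14 to 0.11) and Mxd1 (-0.24 to 0.17) all spanned 0, and their adjusted p-values were 0.841 to 0.944. That of Mycn was too wide, at -1.04 to 0.81, to show a difference of less than about 1 on the log2 scale at this depth.

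Against day 0, 4-PBA at day 4 again gave 9 of 10 genes called (5 higher, 4 lower), where 65.6% of all tested genes were called, 33.2% higher and 32.4% lower. The libraries did not overlap for 81.8% of all tested genes. This comparison shares its libraries with the other comparisons and is no independent evidence. The log2 fold change was -0.81 (SE 0.0592) for Myc, 3.32 (SE 0.0737) for Mycl, 1.55 (SE 0.0465) for Mxd4, 0.29 (SE 0.0484) for Mnt and -0.97 (SE 0.103) for Mxd3. All 14 alternatives kept 9 calls among the 10 genes.

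The genes whose pattern over the 6 libraries lay nearest to that of Myc were Mir100hg, 4930503L19Rik, Noct, Yod1 and Ddit4, out of 10680 genes with a mean of at least 5 CPM. Nearness was the Euclidean distance between log2 CPM centred on each gene's mean, and the distances were 0.134 to 0.185. Mir100hg, the host RNA of a microRNA cluster, stood at 232 and 244 CPM at day 0, then at 176 and 174 CPM in the DMSO libraries and at 146 and 131 CPM in the 4-PBA libraries. Ddit4, an inhibitor of mTOR signalling, stood at 43.6 and 42.7 CPM, then 30.6 and 28.1 CPM, then 25.2 and 25.3 CPM in the same order of groups. Like Myc, these genes went down in 2 steps, from day 0 to DMSO and from DMSO to 4-PBA. They were chosen for that, so it is a description and no test.

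Genes that Myc is known to activate were followed in a list of 48 growth genes, mostly nucleolar and ribosome-production factors with enzymes of nucleotide, polyamine and glucose metabolism. Between day 0 and DMSO all 48 were called, 47 of them lower, with a median log2 fold change of -0.97. In this comparison 66.3% of all tested genes were called, 32.6% lower, and the median over all tested genes was 0.023. The smallest p-values belonged to Npm1 (904 and 934 CPM at day 0, 390 and 386 CPM with DMSO, a log2 fold change of -1.24 with SE 0.0289) and to Nop56 (288 and 283 against 99.1 and 91.0 CPM; -1.59, SE 0.0368), both of the nucleolus. The gene that rose was Tfb2m, a mitochondrial transcription factor, named after its value was seen (0.20).

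Between 4-PBA and DMSO, where Myc was lower, the same 48 genes had a median log2 fold change of 0.0018. A single gene of the 48 was called, or 2.08%, where 4.9% of all tested genes were called, 2.78% lower. It was Hk2, the glucose-phosphorylating hexokinase, which was lower with 4-PBA, at 79.1 and 83.8 against 98.3 and 98.9 CPM (log2 fold change -0.28, SE 0.0379, adjusted p 1.04e-05, edgeR). With DMSO replicate 1 left out the count was 4, and with DMSO replicate 2 left out it was 3. Wdr12, a ribosome-assembly factor, had a log2 fold change of -0.16 (SE 0.0548) and was not called (adjusted p 0.0885). The other values of the list lay between -0.11 and 0.092 on the log2 scale. Npm1 stood at 386 and 388 CPM with 4-PBA and Nop56 at 94.4 and 95.8 CPM, each overlapping DMSO.

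Of 8 genes that Myc is known to repress, 7 could be tested and Cdkn2b had no counts in any library. With DMSO against day 0, 4 were called higher (Cdkn1a, Cdkn1c, Gadd45a and Gadd45b) and Cdkn1b lower, or 71.4% called, near the 66.3% of all tested genes. Cdkn1a, the cell-cycle inhibitor p21, went from 195 and 187 to 728 and 797 CPM (log2 fold change 1.99, SE 0.0377), and Gadd45b, a stress-induced growth-arrest gene, from 8.33 and 9.24 to 26.1 and 26.3 CPM (1.57, SE 0.0778). Between 4-PBA and DMSO 1 was called, Cdkn1a, which was lower at 672 and 693 CPM (-0.16, SE 0.0359, adjusted p 0.00962, edgeR). That call was lost without 4-PBA replicate 1 (adjusted p 0.163), and 2 genes were called without DMSO replicate 1. Gadd45b had a log2 fold change of 0.18 (SE 0.0688, adjusted p 0.138). The share of all tested genes called between 4-PBA and DMSO was 4.9%.

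Partners and cofactors of the network numbered 15, of which 14 could be tested. With DMSO against day 0, 2 were called higher and 9 lower, or 78.6% called, against 66.3% of all tested genes (33.8% higher and 32.6% lower). Bin1, a Myc-interacting protein that in muscle shapes the T-tubule membrane, rose from 498 and 490 to 984 and 1053 CPM (log2 fold change 1.04, SE 0.0301), while Ruvbl2, an ATPase of Myc coactivator complexes, fell from 95.5 and 94.2 to 47.4 and 43.6 CPM (-1.06, SE 0.0459). The corepressors used by the Mxd proteins went apart: Sin3a fell (-0.52) and Sin3b rose (0.24). Mga, a Max partner, fell by 0.13 (adjusted p 0.0229), and the Mlx partner Mlxip (MondoA) fell by 0.12 (adjusted p 0.0393) on the log2 scale. The call of Mga was lost in 3 of the 14 alternatives (without day 0 replicate 1, 0.0977, day 0 replicate 2, 0.0753, or DMSO replicate 2, 0.128). That of Mlxip was lost in 8, 4 of them left-out libraries (without day 0 replicate 1, 0.247, DMSO replicate 1, 0.311, 4-PBA replicate 1, 0.0638, or 4-PBA replicate 2, 0.0547). Mlxipl (ChREBP) had 2 to 7 counts in each library and was not tested.

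Between 4-PBA and DMSO none of the 14 was called by edgeR, where 4.9% of all tested genes were called. An unadjusted p-value under 0.05 was found for 3 of them, and for 2908 of all 17433 tested genes. The smallest of these 3 was that of Sin3a, at 58.8 and 58.3 against 52.6 and 53.6 CPM (log2 fold change 0.14, SE 0.0439, adjusted p 0.0577, edgeR). Sin3a was called with scaling by library size only (0.0381) and with the stricter filter (0.0452). Mga (-0.036, adjusted p 0.806) and Mlxip (-0.0012, adjusted p 0.995) were not called. The DESeq2 Wald test and limma-voom also called none, and 1 was called without DMSO replicate 1.

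Of 14 genes for the turnover and stability of the Myc protein, 4 were called higher and 8 lower with DMSO, or 85.7% called against the same 66.3%. Fbxw7, the ubiquitin ligase subunit that marks phosphorylated Myc for degradation, rose from 26.4 and 23.1 to 55.2 and 55.7 CPM (log2 fold change 1.17, SE 0.0552). Skp2, another ligase subunit that acts on Myc and is active in cycling cells, fell from 55.6 and 56.2 to 21.0 and 19.2 CPM (-1.48, SE 0.0583). Between 4-PBA and DMSO Skp2 alone was called, at 23.2 and 23.1 CPM with 4-PBA (0.21, SE 0.0610, adjusted p 0.0375, edgeR), a call that was lost in 9 of 14 alternatives (adjusted p 0.0507 to 0.259) and whenever a library other than DMSO replicate 1 was left out. Without DMSO replicate 1, 3 of the 14 were called. Ppp2r5a, a phosphatase subunit, was not called (0.11, SE 0.0425, adjusted p 0.141). Across all tested genes 4.9% were called between 4-PBA and DMSO.

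**Figure D4:**
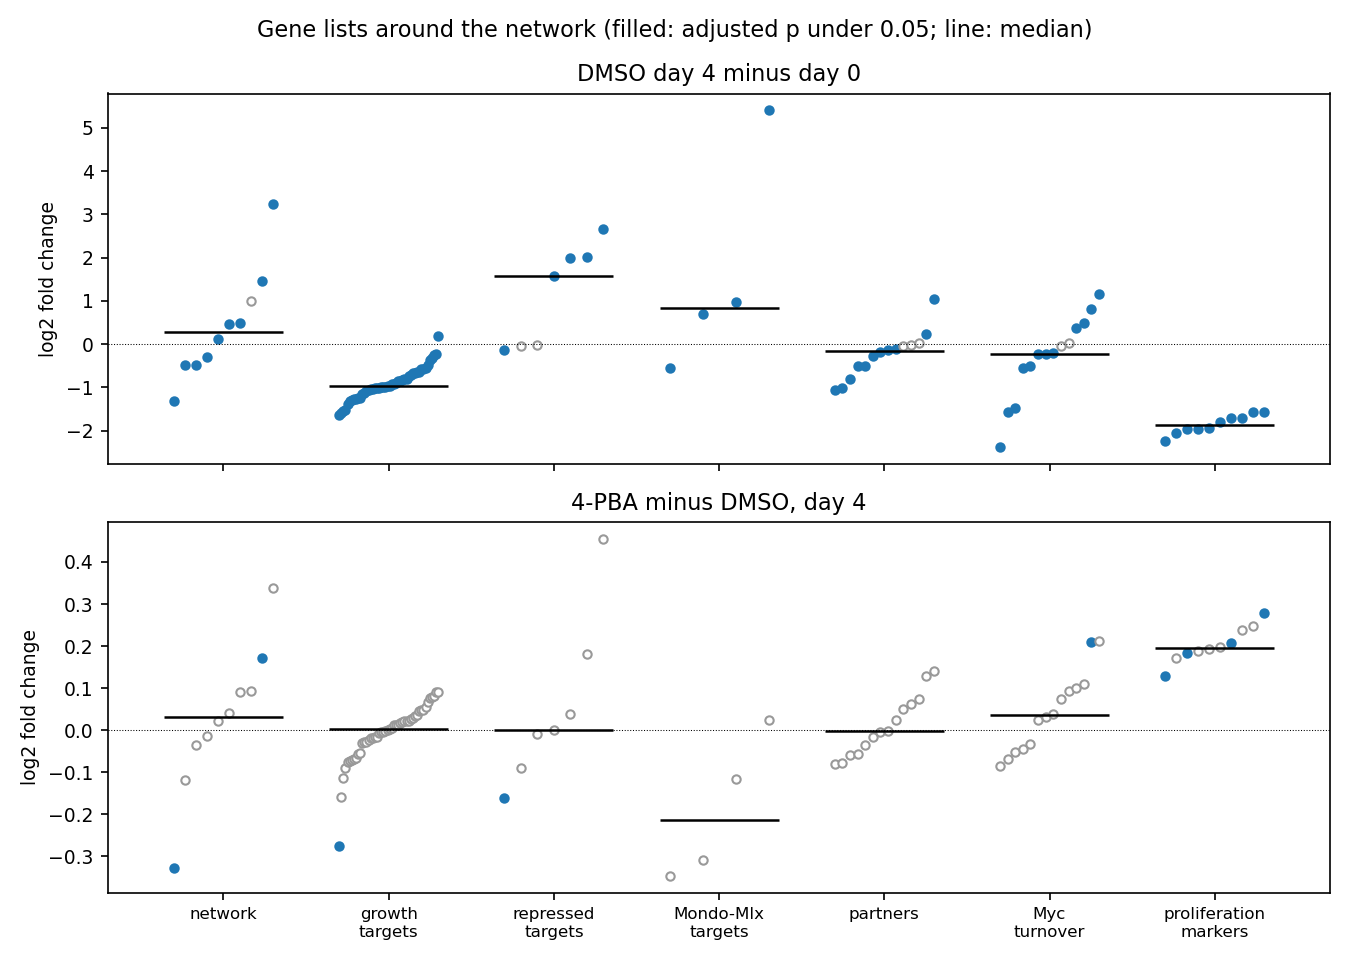
Log2 fold change (y axis, a different scale in each panel) of every tested gene in the network and in 6 lists around it, for DMSO at day 4 against day 0 (top) and for 4-PBA against DMSO at day 4 (bottom). Points are genes sorted by value, filled where the adjusted p-value was under 0.05, and lines are medians; the growth targets lie at a median of -0.97 in the top panel and 0.0018 in the bottom panel.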

How the data were processed

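The authors deposited raw counts per gene symbol, 1 column per library, neither normalised nor pooled, per the file headers and values. GRCm39 is named in the submitters' processing notes; the aligner, counter, annotation and strand setting are not given in the sources used here. Libraries were directional, per the labels' protocols.

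Counts were fitted over all 6 libraries with edgeR 4.0.16 in R 4.3.3 (filterByExpr, TMM, a mean per group, robust glmQLFit; 3 residual degrees of freedom, common biological coefficient of variation 3.74%). P-values were Benjamini-Hochberg adjusted over 17433 genes and calls made under 0.05. SE is the log2 fold change divided by the square root of F. Replicates differed by more than sampling noise (chi-square per degree of freedom 3.98 to 7.15). Tested on simulated counts of 4-PBA against DMSO, the fit called 136 of 200 changed genes among 17433, with 8 false calls. The planted changes were of mixed size, most of them larger than those called for Myc and Mnt. All other genes were given the same mean in every group, unlike the data. These counts therefore check the code and do not measure the error of the calls reported here.

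Beside the network genes, Mki67, Myog and Myh3, named genes are the 2 with the smallest p-value per list in each of the DMSO against day 0 and the 4-PBA against DMSO comparisons, Mga, Mlxip, Mlxipl and the 5 nearest to Myc; others are named where a count is 5 or fewer. Members and lists were chosen with earlier results of these data known. Alternatives were DESeq2 1.42.0 (size factors, and the Wald test), library size only, 2 other filters, limma-voom (limma 3.58.1), only the 4 libraries compared, a replicate block and each library left out. The myotube and myoblast markers other than Myog, Myh3 and Myod1, and the order of levels with mean transcript lengths, were added after seeing the data. All libraries carry batch 1. Lengths and overlaps come from GENCODE M21 (GRCm38), another build than the authors'. Figures used Python 3.11.15 and matplotlib 3.10.9.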

Additional observations from a re-analysis of the deposited data

How the results depend on the processing

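Against day 0, 8 or 9 network genes were called with DMSO and 9 with 4-PBA in every alternative. Between 4-PBA and DMSO the count of 2 network genes ranged from 1 to 3 when 1 library was left out. The count of 855 genes overall ranged from 295 (4-PBA replicate 2 left out) to 1194 (DMSO replicate 1 left out), with 341 when 4-PBA replicate 1 was left out. In the same comparison the counts when 1 library was left out were 0 to 1 for partners, 0 to 3 for turnover genes, 1 to 4 for growth targets, 0 to 2 for repressed targets, 0 to 2 for Mondo-Mlx targets, 2 to 10 for proliferation markers, 1 to 3 for myotube markers and 0 to 1 for myoblast markers (the last pair chosen after seeing the data); partners of 4-PBA against day 0 numbered 7 (4-PBA replicate 2 left out) to 11. Partners numbered 1 with library size only and 1 with the stricter filter. Turnover genes numbered 2 with the filter of 1 count and 0 with the DESeq2 Wald test, limma-voom, only the 4 libraries compared and the replicate block. Proliferation markers numbered 10 with the filter of 1 count and 7 with limma-voom. Of 855 calls 43.4% were higher, and of 896 with library size only 51.5%.

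The ratio of Myc family to antagonists was 0.791, 0.679 and 0.575 (day 0, DMSO, 4-PBA) with mean transcript lengths, and 1.56, 1.13 and 0.939 without Mnt. The cause of these shifts is the changed divisor or sum.

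Replicate numbers gave no sign of pairing: deviations of replicate 1 from the group mean correlated at -0.028, -0.0031 and -0.012 across 17433 genes. All genes had equal weight, and noise in low counts lowers such a correlation, so it cannot show that the libraries were unpaired. With the replicate block 9, 2 and 9 network genes were called (DMSO against day 0, 4-PBA against DMSO, 4-PBA against day 0), and 768 genes overall between 4-PBA and DMSO.

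Among the genes followed under alternatives, the sign of the 4-PBA against DMSO log2 fold change turned only for genes that were not called. When 1 library was left out it ranged from -0.55 to 0.21 for Mycn, -0.041 to 0.082 for Max, -0.10 to 0.031 for Mxd1, -0.074 to 0.043 for Mxi1, -0.011 to 0.0013 for Npm1, -0.059 to 0.062 for Nop56, -0.031 to 0.081 for Klf10, -0.053 to 0.055 for Mlxip, -0.12 to 0.049 for Mga, -0.045 to 0.058 for Myog and -0.030 to 0.069 for Myh3. With library size only it was 0.0045 for Npm1 and 0.0081 for Mlxip, with DESeq2 size factors 0.0018 and with the DESeq2 Wald test 0.0020 for Mlxip, and for Nop56 -0.0013 with the filter of 1 count and -0.0016 with the stricter filter. The cause was not tested. The other myotube markers were lower with 4-PBA under each alternative, Ttn at -0.30 to -0.25 on the log2 scale. Of 416 network gene values under alternatives, 402 kept direction and side of the threshold. Depth limits Mycn, at 10 to 37 counts per library.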

Other observations

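Mlx and its Mondo partners are known to drive a small set of glucose-responsive genes, of which 4 of 5 could be tested (Pklr had at most 2 counts in any library). While Mlx and Mlxip fell between day 0 and DMSO, 3 of the 4 were called higher and 1 lower, where 66.3% of all tested genes were called. Fgf21, a secreted stress hormone of muscle and liver, went from 0.165 and 0.0855 CPM to 4.06 and 6.08 CPM (log2 fold change 5.40, SE 0.304). At day 0 Fgf21 was near the floor of detection, with 8 and 6 counts, so the size of this rise is uncertain. The log2 fold change was 5.86 without day 0 replicate 1 and 4.94 without day 0 replicate 2. Klf10, a Krüppel-like factor induced by TGF-β, went from 41.3 and 42.3 to 65.4 and 70.6 CPM (0.70, SE 0.0483), and Txnip, an inhibitor of glucose uptake, from 62.6 and 66.8 to 114 and 140 CPM. Arrdc4, a relative of Txnip, was called lower (-0.56, adjusted p 0.0330, edgeR), a call lost with the DESeq2 Wald test (0.0913) and without day 0 replicate 2 (0.339) or DMSO replicate 2 (0.216). Between 4-PBA and DMSO edgeR called none of the 4, where 4.9% of all tested genes were called. None of the 4 had an unadjusted p-value under 0.05, which 2908 of all 17433 tested genes had. The DESeq2 Wald test and limma-voom also called none of the 4. Fgf21 stood at 4.25 and 3.75 CPM with 4-PBA (-0.35, SE 0.174, adjusted p 0.316), but was called without DMSO replicate 1 (-0.60, adjusted p 0.0390) and was -0.018 without DMSO replicate 2.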
